A study of Mus musculus with 6 samples.

Results

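The proteasome subunit genes were followed on 6 arrays of mouse gonad RNA. A symbol pattern for the families Psma to Psmg found 49 of the 18193 genes that the arrays measured with a probe set of a single symbol. Of these, 47 encode parts, activators or assembly factors of the proteasome and are described as the proteasome genes. The other 2, Psmc3ip and Psme3ip1, are named after proteins that bind a proteasome subunit and an activator and are no subunits themselves, so they are given apart. The gonads came from C57BL/6 mice, an inbred strain, with no mutation, transgene or treatment named. Ovary and testis were each taken at 15.5 days postcoitum (fetal), at 1 day after birth (neonatal) and at 10 weeks (adult). Each of these groups has 1 array, and how many animals each array stands for is not stated in the labels. Differences below therefore lack any replicate check, and neither p-values nor standard errors were computed. The series title names a search for genes of chromosome segregation in meiosis I.

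The proteasome is the protease that degrades proteins tagged with ubiquitin. Its barrel, the 20S core, is built of alpha rings that gate the entrance and beta rings that hold the catalytic sites, and the 19S particle on its end recognises, unfolds and feeds in the substrate. Other caps can take the place of the 19S particle, and in male germ cells a testis form of the core is known, in which Psma8 takes the place of Psma7 in the alpha ring. Cells under the influence of interferon, and many leukocytes, exchange the catalytic beta subunits Psmb6, Psmb7 and Psmb5 for Psmb9, Psmb10 and Psmb8.

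Signals are the deposited intensities after each array was scaled to the same trimmed mean. Values under 75.3, the median of all scaled signals, were raised to that floor. A gene is called when its signals on 2 arrays differ by 2-fold or more, and a ratio against an array at the floor is a lower bound. Signals are compared between arrays for a gene and never between genes. The arithmetic mean of the deposited signals of 9 hybridization controls, RNAs added to each sample, was lowest in adult testis (1170) and next in neonatal ovary (1525). It was 2206 to 2708 elsewhere. Main results that involve adult testis are therefore also given with the arrays scaled to the geometric mean of these controls. Late spermatocyte and spermatid markers were all above the floor in adult testis (15 of 15, summed signal 107921), and on each other array 14 or 15 of them were at the floor (summed signal 278 to 532). Summed signals of marker lists here and below are of scaled values before the floor. For RNA quality, Gapdh had 3′ over 5′ signal ratios of 2.36 (adult testis), 3.12 (neonatal ovary) and 1.32 to 1.45 elsewhere. Those of Actb were 1.81 (adult testis) and 2.91 to 3.79 elsewhere. These features moved together with the results on adult testis below, and their part in those results was not tested. In whole gonads, fewer cells of a type and less RNA per cell cannot be told apart.

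On the 5 arrays other than adult testis the proteasome genes lay within a narrow range. Of the 47 genes, 44 were above the floor on all 6 arrays, and for these the highest signal on the 5 arrays was 1.29 times the lowest (median over genes), against 1.64 for all 9425 genes above the floor throughout. All genes were not matched to the proteasome genes for signal level. The genes that spanned 2-fold or more among these 44 were Psma8 and Psmb10 (4.5%, against 29.9% of all genes). With the signals as deposited there were 5, also Psmd7, Psme3 and Psmg3 (11.4%, against 40.5% of all genes). With the hybridization controls there were 4 of 43, Psmb10, Psme1, Psme4 and Psmf1 (9.3%, against 43.4% of all genes). With adult testis included the median range was 1.98-fold for the proteasome genes and 2.91-fold for all genes, and 21 of 44 proteasome genes (47.7%) and 73.7% of all genes spanned 2-fold or more. Adult testis had the lowest signal for 26 of the 44 genes and the highest for 11, shares of 59.1% and 25% that were near those of all genes, 56.2% and 23.3%. Under scaling to the hybridization controls the counts turned around, to 5 of 43 lowest and 29 highest. These are shares of 11.6% and 67.4%, where all genes had 22.9% and 49.1%. The genes outside the 44 were Psmb8 and Psmb9, which were at the floor on some arrays, and Psmb11, the beta subunit of the thymus, which was at the floor on every array.

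**Figure D1:**
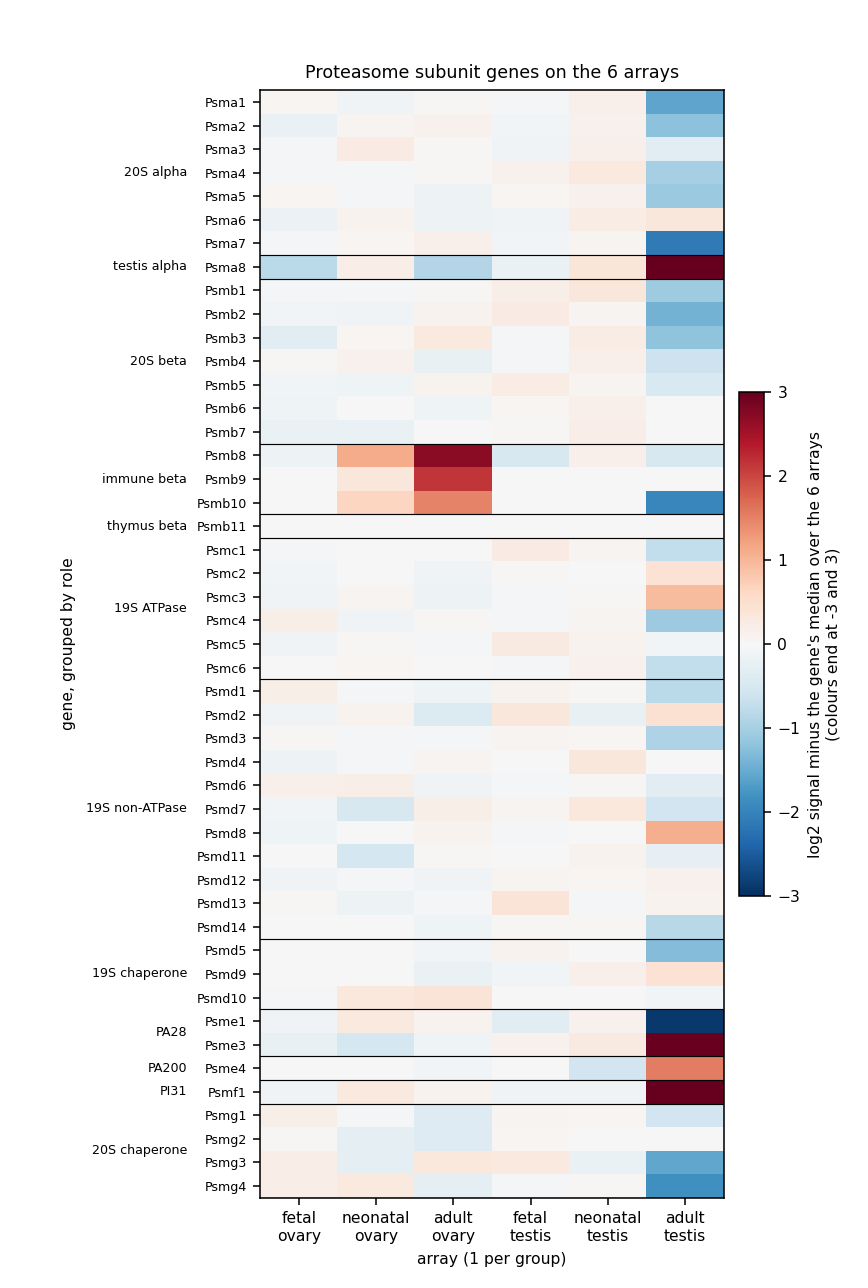
Heat map of the 47 proteasome genes (rows, grouped by role) on the 6 arrays (columns, 1 array per group), coloured by log2 signal minus the gene's median over the 6 arrays, with colours ending at -3 and 3. Adult testis is the column that departs for most genes, with Psma8, Psme3, Psme4 and Psmf1 high and Psma7 and Psme1 low, and Psmb8, Psmb9 and Psmb10 are highest in adult ovary.

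Sequence from the start regions of 5 genes is shown because their signals were among those that moved most between adult testis, adult ovary and the other arrays and because RefSeq holds their promoters: Psma7 and Psme1 (low in adult testis), Psme4 (high in adult testis), and Psmb8 and Psmb9 (high in adult ovary). Each runs 5′ to 3′ on the gene's strand from 250 bases before to 50 bases after the start, in build GRCm38.p6, and capitals mark the motifs named after the sequences. The regions are chr2:180042415-180042714 on the minus strand for Psma7, chr14:55578244-55578543 on the plus strand for Psme1, chr11:30771525-30771824 on the plus strand for Psme4, chr17:34197945-34198244 on the plus strand for Psmb8 and chr17:34187281-34187580 on the minus strand for Psmb9.
Psma7: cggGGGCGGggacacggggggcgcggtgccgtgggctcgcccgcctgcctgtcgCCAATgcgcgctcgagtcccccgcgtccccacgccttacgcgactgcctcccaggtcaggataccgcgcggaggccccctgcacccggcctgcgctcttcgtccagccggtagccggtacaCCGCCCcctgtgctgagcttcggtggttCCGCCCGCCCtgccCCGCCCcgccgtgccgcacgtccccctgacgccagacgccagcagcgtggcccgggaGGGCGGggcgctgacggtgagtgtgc
Psme1: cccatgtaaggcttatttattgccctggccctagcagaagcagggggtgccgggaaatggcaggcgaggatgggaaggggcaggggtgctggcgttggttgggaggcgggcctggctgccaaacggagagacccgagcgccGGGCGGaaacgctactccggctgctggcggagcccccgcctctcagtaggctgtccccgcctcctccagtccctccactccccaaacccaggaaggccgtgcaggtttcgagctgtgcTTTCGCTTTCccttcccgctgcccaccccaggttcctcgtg
Psme4: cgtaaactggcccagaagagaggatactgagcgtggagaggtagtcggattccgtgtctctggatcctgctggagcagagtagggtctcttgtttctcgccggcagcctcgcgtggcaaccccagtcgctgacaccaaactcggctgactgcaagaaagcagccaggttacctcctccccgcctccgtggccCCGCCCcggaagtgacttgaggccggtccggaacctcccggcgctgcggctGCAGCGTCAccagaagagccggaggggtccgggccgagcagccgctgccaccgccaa
Psmb8: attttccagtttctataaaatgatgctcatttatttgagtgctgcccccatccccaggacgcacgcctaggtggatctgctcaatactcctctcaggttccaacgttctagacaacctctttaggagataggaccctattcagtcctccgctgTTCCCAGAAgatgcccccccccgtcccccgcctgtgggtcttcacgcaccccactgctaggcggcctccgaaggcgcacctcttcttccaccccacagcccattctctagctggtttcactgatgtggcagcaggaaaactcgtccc
Psmb9: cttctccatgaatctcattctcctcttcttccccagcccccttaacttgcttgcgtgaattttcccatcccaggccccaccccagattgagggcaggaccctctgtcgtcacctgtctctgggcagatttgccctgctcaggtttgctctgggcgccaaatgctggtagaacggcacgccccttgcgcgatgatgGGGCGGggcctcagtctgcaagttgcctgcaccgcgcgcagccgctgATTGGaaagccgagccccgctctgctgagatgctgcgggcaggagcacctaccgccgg
Motifs were searched as letters on both strands, in RefSeq promoters of 39 of the 47 genes and of 27025 genes in all. TGACNNNGC, the core of the antioxidant response element through which Nfe2l1 and Nfe2l2 act on proteasome genes, stood in 6 of 39 proteasome promoters (15.4%) and in 14.0% of all promoters. The 6 were those of Psmb5, Psmb6, Psmc6, Psmd9, Psmd12 and Psme4, and in Psme4 the match lay 7 bases before the start. CCAAT stood in 14 of 39 (35.9%, all promoters 41.1%) and GGGCGG, a GC box, in 22 of 39 (56.4%, all promoters 38.2%). In the Psma7 promoter GGGCGG was matched 6 times, and a pair of the matches overlap. The core of the interferon-stimulated response element, GAAA followed after 2 free bases by GAAA, stood in 5 of 39 (12.8%, all promoters 3.99%), among them Psme1, where it lay 10 bases after the start. The GC box and both interferon motifs were chosen after the values were seen. TTCNNNGAA, the core of the gamma-interferon activation site, stood in 3 of 39 (7.69%, all promoters 9.55%), among them Psmb8. A match is a run of letters and was not tied to any signal here.

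Between the sexes before adulthood no proteasome gene was called with the trimmed mean, where most of all genes were not called either. In fetal ovary against fetal testis, where ovarian germ cells are in meiotic prophase and those of the testis are not, no proteasome gene of the 45 above the floor was called, while 1.68% of all genes tested were called higher and 2.59% lower. Their log2 ratios ran from -0.62 (Psma8, with signals of 82.8 in ovary and 128 in testis) to 0.32 (Psmb8), with a median of -0.07 against 0.02 for all genes. All 11 markers of meiotic prophase were called higher in the same comparison. With the floor at the 75th percentile, none of 43 proteasome genes was called, beside 54 higher and 112 lower of 8086 genes tested. In neonatal ovary against neonatal testis none of 46 was called either (8.04% of all genes higher, 5.27% lower), and the median was -0.08 against 0.07. The largest ratios were those of Psmb8, with 228 in ovary and 117 in testis, and Psme3, with 224 and 393. Scaled to the hybridization controls, on which neonatal ovary was low, 4 of the 46 were called higher, beside 2896 of all 13005 genes tested. The median became 0.51, with the median of all genes at 0.61.

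From fetal to neonatal life few proteasome genes were called, and few of all genes were. In testis no proteasome gene of 45 was called (all genes 3.29% higher and 4.92% lower), and the median log2 ratio was 0.06 against -0.06 for all genes. All 7 constitutive alpha genes lay between 0.06 and 0.32. In ovary 2 of 46 were called higher (4.35%, near the 5.01% of all genes), Psmb8 at 2.42-fold and Psma8 at 2.02-fold. None was called lower (all genes 3.44%). Both have low signals, 94.0 and 228 for Psmb8 and 82.8 and 167 for Psma8, and both fell under the limit with the signals as deposited.

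In adult testis against neonatal testis proteasome genes were called in both directions. Of 45 genes above the floor, 14 were called lower (31.1%, all genes 32.5%) and 5 higher (11.1%, all genes 22.6%). Neither share exceeds that of all genes. Scaled to the hybridization controls these counts become 1 lower and 21 higher, where 8.5% of all genes were lower and 48.7% higher. The genes called higher were Psma8, Psmf1, Psme3, Psme4 and Psmd8. Those called lower were 8 of 14 constitutive core genes, Psme1, Psmb10, Psmc4, Psmd5, Psmg3 and Psmg4. At a ratio of 4 or more, 4 were higher (all genes 13.7%) and 2 lower (all genes 13.2%). The median log2 ratio was -0.62, with -0.30 for all 14198 genes tested. Scaled to the hybridization controls these medians became 0.88 and 0.96, and 9 of the 14 genes called lower lay slightly above 0. Scaling by 1 factor per array moves all genes above the floor together.

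**Figure D2:**
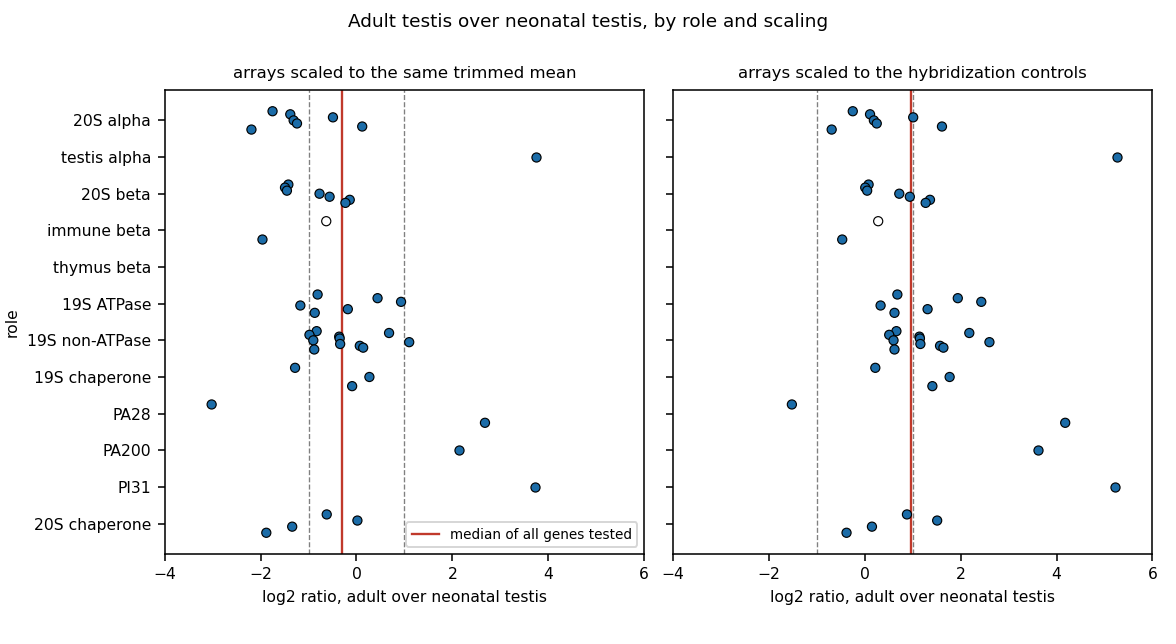
Log2 ratio of adult over neonatal testis for each proteasome gene (points, grouped by role on the vertical axis), with arrays scaled to the same trimmed mean (left) or to the hybridization controls (right); dashed lines mark a ratio of 2, the red line is the median of all genes tested, the open point (Psmb8) had adult testis at the floor in the left panel, and Psmb9 and Psmb11, at the floor on both arrays, are not drawn. The core genes lie mostly below the all-gene median in both panels, whereas their sign against 0 changes between the panels for most.

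Psma8 encodes the testis form of the alpha subunit that Psma7 provides elsewhere, and lies on chromosome 18. Its signals were 82.8, 167 and 80.0 in fetal, neonatal and adult ovary and 128, 187 and 2524 in fetal, neonatal and adult testis. Adult testis alone was high, 13.5-fold over neonatal testis and 31.5-fold over adult ovary, and the 5 other signals were at 187 or less. In fetal ovary, with meiotic prophase markers high, Psma8 stayed near the floor. The log2 ratio of adult over neonatal testis was 3.75, and 5.25 with the hybridization controls.

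Psma7, on chromosome 2, showed the reverse pattern. Its signals were 2579, 2802 and 2967 in fetal, neonatal and adult ovary and 2527, 2831 and 620 in fetal, neonatal and adult testis. Adult testis was 4.57-fold below neonatal testis, and the 5 other arrays stayed within 1.17-fold of each other. A second probe set of Psma7 gave 2559 in neonatal and 430 in adult testis, a log2 ratio of -2.57 beside -2.19. Of the alpha genes, Psma7 had the lowest ratio, and it stayed below 0 when scaled to the hybridization controls (-0.69, all genes 0.96).

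The alpha genes encode the rings that gate the core. Psma1 was 3.36-fold lower in adult than in neonatal testis, Psma2 2.60-fold, Psma4 2.47-fold and Psma5 2.37-fold. Dim probe sets of Psma1 gave log2 ratios of -0.32 and, with adult testis under the floor, -0.38. A further bright probe set of Psma5 gave -1.35. Psma3 was at 4113 against 5768 and Psma6 at 8120 against 7481, both within 2-fold. Over the 7 constitutive alpha genes, 5 were called lower (71.4%; all genes 32.5%) and none higher (all genes 22.6%), with a median of -1.31, but scaled to the hybridization controls Psma2, Psma4 and Psma5 had log2 ratios of 0.11, 0.19 and 0.25, Psma3 and Psma6 were at 1.01 and 1.61, and Psma1 stayed at -0.25.

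Among the 7 constitutive beta genes, 3 were called lower (42.9%; all genes 32.5%) and none higher, with a median of -0.77. These were Psmb1, Psmb2 and Psmb3, subunits without an active site, which were 2.67-fold, 2.81-fold and 2.73-fold lower, and at log2 ratios of 0.08, 0.01 and 0.05 with the hybridization controls. A further probe set of Psmb3 gave a log2 ratio of -0.92, short of the limit. Dim probe sets of Psmb1 gave -0.60, with adult testis under the floor, and -0.43. The catalytic subunits were within 2-fold of neonatal testis with the trimmed mean, and at log2 ratios of 0.94 (Psmb5), 1.36 (Psmb6) and 1.27 (Psmb7) with the hybridization controls. Psmb5, the chymotrypsin-like subunit, had 1884 in adult and 2770 in neonatal testis, Psmb6, the caspase-like subunit, 3844 and 4223, and Psmb7, the trypsin-like subunit, 5426 and 6367. The remaining beta gene, Psmb4, had 3482 and 5943.

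Of the 17 genes of the 19S particle, 1 was called higher (5.88%, all genes 22.6%) and 1 lower (5.88%, all genes 32.5%). Their median log2 ratio was -0.35, near the -0.30 of all genes. Of the 14 core genes, 8 were called lower (57.1%) and 0 higher, and the core median was -1.27. With the hybridization controls, 10 of the 17 were higher and none lower (median 1.15), against 4 higher and none lower of the 14 core genes (median 0.22), where 48.7% of all genes were higher and 8.5% lower. The difference between core and 19S particle was not tested. Among the 6 ATPases, the ring that unfolds the substrate, Psmc4 was 2.24-fold lower, and at a log2 ratio of 0.33 with the hybridization controls. Psmc3 had 8256 in adult and 4329 in neonatal testis (1.91-fold) and Psmc2 had 8239 and 6071. With the trimmed mean, adult testis was the highest of the 6 arrays for both, while Psmc1, Psmc4 and Psmc6 were lowest there. With the hybridization controls, adult testis was the highest array for 16 of the 17 genes of the 19S particle and the lowest for 0. A pair of Psmc6 probe sets above the floor on all arrays had log2 ratios of -0.87 and -2.57, and another was under the floor in adult testis.

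Of the 11 non-ATPase genes, Psmd8, a lid subunit, was called higher. Its signals were 2042, 2250 and 2403 in fetal, neonatal and adult ovary and 2176, 2234 and 4794 in fetal, neonatal and adult testis, so that adult testis stood 2.15-fold above neonatal testis and the other arrays lay close together. With the hybridization controls the log2 ratio was 2.60. Psmd2, the large base subunit that holds ubiquitin-like proteins, had 3554 against 2211. Psmd3, Psmd7 and Psmd14, the deubiquitinase of the lid, had log2 ratios of -0.98, -0.90 and -0.88, just short of the limit with the trimmed mean. With the hybridization controls, 7 of the 11 non-ATPase genes were called higher and 0 lower (all genes 48.7% and 8.5%), with a median of 1.15. Psmd12 and Psmd13 lay at 0.07 and 0.14. The ubiquitin receptor Psmd4 had 2720 against 3484.

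The caps that can replace the 19S particle moved in both directions. Psme1, the alpha subunit of the PA28 activator that is induced by interferon, gave 3799, 5048 and 4443 in fetal, neonatal and adult ovary and 3321, 4473 and 552 in fetal, neonatal and adult testis. It was 8.10-fold lower in adult than in neonatal testis and was the proteasome gene still called lower under scaling to the hybridization controls (-1.52). Its partner Psme2 is covered by a probe set that carries a pair of symbols and is given with the additional observations. Psme4 encodes PA200, a cap known from spermatids, where it serves the removal of histones. Its signals were 1691, 1667 and 1578 in fetal, neonatal and adult ovary and 1679, 1116 and 4879 in fetal, neonatal and adult testis. Adult testis was 4.37-fold above neonatal testis and 3.09-fold above adult ovary, and the other probe sets above the floor gave log2 ratios of 2.05 and 2.57 beside 2.13. With the hybridization controls the latter was 3.62.

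Psme3 and Psmf1 depended on the probe set. Psme3 encodes PA28 gamma, a nuclear cap, and its brightest probe set had 277, 224 and 294 in the ovaries and 355, 393 and 2522 in the testes, in order of age. That is 6.42-fold higher in adult than in neonatal testis, whereas another probe set of Psme3 had 597 in neonatal and 365 in adult testis. Psmf1 encodes PI31, a proteasome inhibitor and regulator, and its brightest probe set had 469, 621 and 545 in the ovaries and 474, 469 and 6183 in the testes. The ratio was 13.2-fold, but the other 3 probe sets of Psmf1 gave 345 and 318, 258 and 300, and 123 and a value under the floor in neonatal and adult testis. With the mean of all probe sets neither gene was called, at log2 ratios of 0.66 for Psme3 and 0.78 for Psmf1. Scaled to the hybridization controls, the brightest probe sets were at 4.18 for Psme3 and 5.22 for Psmf1.

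**Figure D3:**
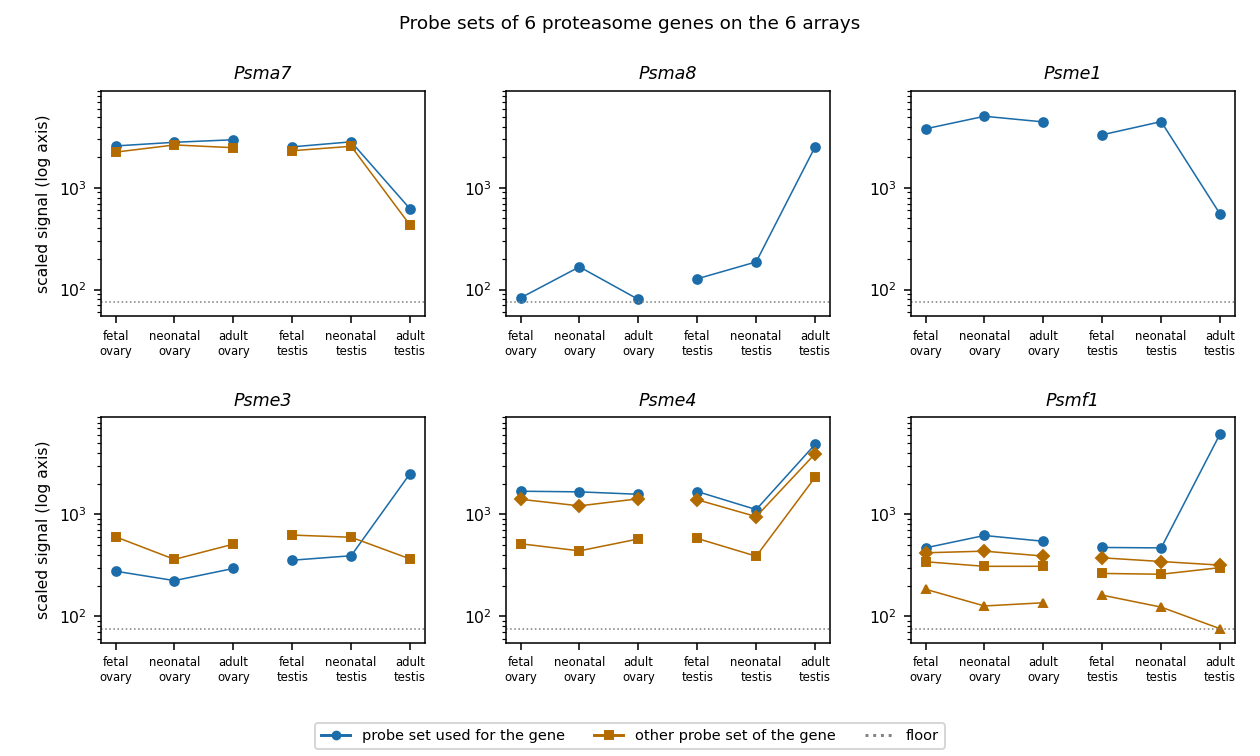
Scaled signal (log axis) of every probe set above the floor on at least 1 array for Psma7, Psma8, Psme1, Psme3, Psme4 and Psmf1 on the 6 arrays; blue is the probe set used, orange the others, and the dotted line the floor of 75.3. The probe sets of Psma7 and of Psme4 run in parallel, while in Psme3 and Psmf1 only the blue probe set is high in adult testis.

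The assembly factors chaperone the building of the core and of the 19S base. Of the core chaperones, Psmg4 was 3.67-fold and Psmg3 2.54-fold lower, and Psmg1 and Psmg2 lay at log2 ratios of -0.62 and 0.02. Of the chaperones of the 19S base, Psmd5 was 2.43-fold lower, and Psmd9 and Psmd10 lay at 0.27 and -0.09. Psmg1, Psmg2, Psmd9 and Psmd10 were at 0.88, 1.51, 1.77 and 1.41 with the hybridization controls. Psmg4 kept a ratio below 0 with the hybridization controls (-0.38), and Psmg3 and Psmd5 did not (0.15 and 0.22).

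In adult ovary against adult testis, 15 of 46 genes were called higher (32.6%, all genes 34.2%) and 5 lower (10.9%, all genes 22.4%). With the hybridization controls these counts become 5 higher and 17 lower, where 14.3% of all genes were higher and 40.8% lower. At 4-fold or more, 5 were higher (all genes 15.1%) and 3 lower (all genes 13.8%). This comparison shares the adult testis array with the one above, so the values stand beside it and do not add to it. The median log2 ratio was 0.52, with 0.35 for all genes. The genes lower in ovary were Psma8, Psmf1 (11.4-fold), Psme3 (8.57-fold), Psme4 and Psmc3 (2.17-fold), and Psmd8 was short of the limit. For Psmf1 and Psme3 only the brightest probe set was lower in ovary. Other probe sets above the floor had log2 ratios of 0.04, 0.30 and 0.85 for Psmf1 and 0.48 for Psme3. Psme1 was 8.05-fold and Psma7 4.78-fold higher in ovary. Scaled to the hybridization controls the median was -0.60, with -0.65 for all genes. Of all calls over all genes, 60.4% were for higher signal in ovary with the trimmed mean and 25.9% with the controls, and for adult over neonatal testis 41.0% and 85.1% were for higher signal in adult testis.

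The immune subunits had their highest signals in adult ovary. The signals of Psmb8 were 94.0, 228 and 679 in fetal, neonatal and adult ovary, and in testis it was at the floor in fetal and adult animals and at 117 in neonatal ones. Psmb9 was at the floor in fetal ovary and in all testes, and had 95.8 in neonatal and 331 in adult ovary. Psmb10 had 378, 595 and 1076 in fetal, neonatal and adult ovary and 378, 387 and 99.3 in fetal, neonatal and adult testis. For all 3 genes adult ovary was the highest array and neonatal ovary the next.

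Against adult testis, adult ovary was 10.8-fold higher for Psmb10, at least 9.02-fold for Psmb8 and at least 4.40-fold for Psmb9. All 3 were at 4-fold or more, and they remained at 4-fold or more when scaled to the hybridization controls, with log2 ratios between 2.0 and 2.63. Against neonatal ovary, 2 of 46 proteasome genes were called higher (all genes 8.05%), Psmb9 at 3.46-fold and Psmb8 at 2.98-fold, and Psmb10 had a log2 ratio of 0.85. The gene called lower there (all genes 9.42%) was Psma8, close to the floor. The subunits that the immune forms replace moved less in ovary. Psmb5 had 2453, 2380 and 2816, Psmb6 3437, 3729 and 3443, and Psmb7 4793, 4764 and 5583 in fetal, neonatal and adult ovary.

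Markers of leukocytes and macrophages and genes of antigen presentation were also high in adult ovary. The 12 leukocyte markers summed to 7381, 9885 and 13967 in fetal, neonatal and adult ovary and 6974, 5228 and 2179 in fetal, neonatal and adult testis, and 10 of 12 were called higher in adult ovary against adult testis (all genes 34.2%). Against neonatal ovary 3 of the 12 were called higher (all genes 8.05%), with Lyz2 going from 1155 to 3765 and Csf1r from 3113 to 2027. Ptprc, Tyrobp and C1qa were at the floor in adult testis. Of 14 genes of antigen presentation and interferon, 11 of the 13 above the floor on either adult array were called higher in ovary and none lower, with summed signals of 32741 and 7538. Tap1, the peptide transporter beside Psmb9 in the genome, was at the floor in adult testis and at least 6.16-fold higher in adult ovary, and Cd74, the invariant chain of class II molecules, was 10.9-fold higher (3394 against 310). Other lists moved too: in adult ovary over adult testis 6 of 6 endothelium markers (median 2.13) and 6 of 7 granulosa markers (median 3.38) were called higher, and over neonatal ovary none of the former and 6 of the latter. Whether the immune subunits came from leukocytes or other cells was not tested.

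**Figure D4:**
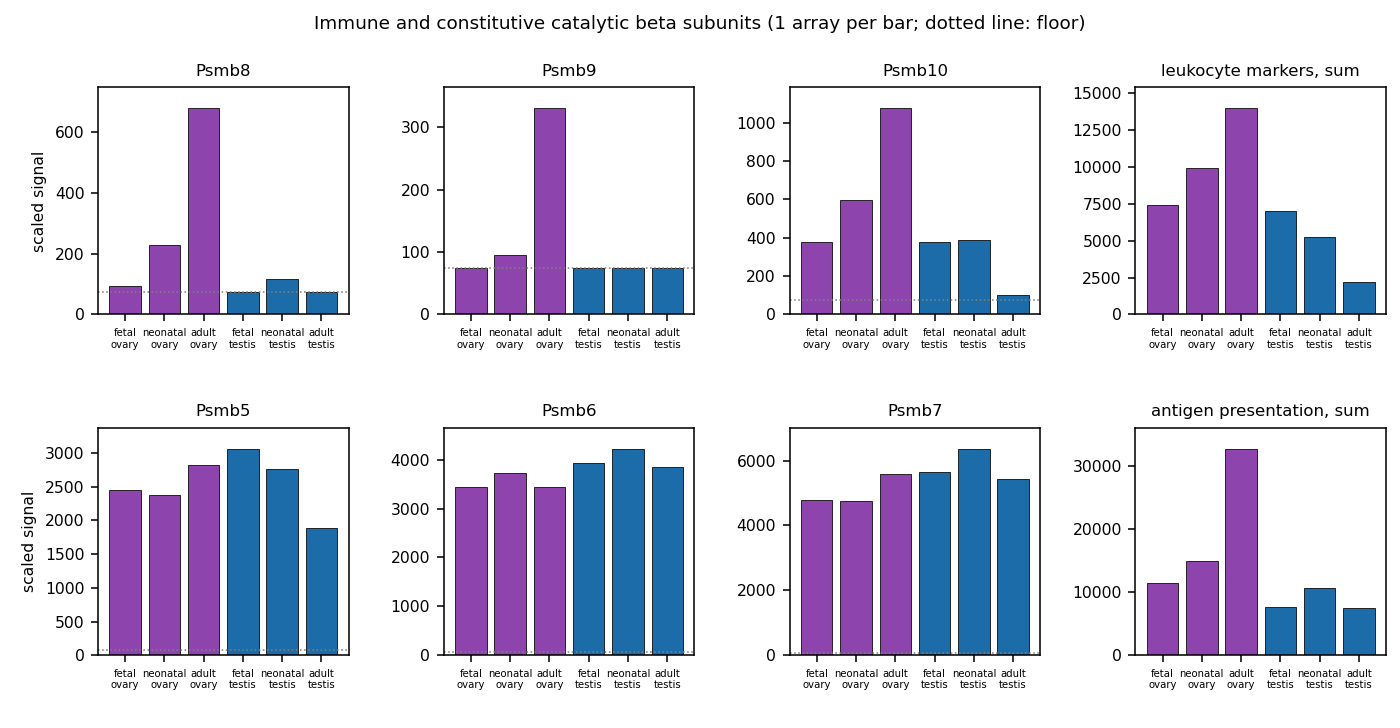
Scaled signal on a linear axis (1 array per bar, ovaries purple, testes blue) of the immune beta subunits Psmb8, Psmb9 and Psmb10, of the constitutive catalytic subunits Psmb5, Psmb6 and Psmb7, and the summed signals of the leukocyte and antigen presentation lists; the dotted line is the floor of 75.3. Adult ovary is the tallest bar for each immune subunit and for both lists, and no such peak appears for Psmb5, Psmb6 or Psmb7.

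Genes that work with the proteasome were read from fixed lists. Of 8 measured partners and parts outside the symbol families, 1 was called higher (12.5%; all genes 22.6%) and 3 lower (37.5%; all genes 32.5%) in adult than in neonatal testis. The higher one was Akirin2, which carries proteasomes into the nucleus (2.38-fold). The lower ones were Txnl1, a thioredoxin of the 19S particle (4.02-fold), Zfand5 (2.99-fold) and Pomp, the chaperone of core maturation (2.55-fold). Of 11 shuttles, p97 partners and regulators above the floor, 3 were higher (27.3%) and 2 lower (18.2%). With the hybridization controls none of either list was called lower, where 8.5% of all genes were. Called higher were 3 of 8 partners (37.5%) and 5 of 12 shuttles, p97 partners and regulators (41.7%), where 48.7% of all genes were. Under this scaling Txnl1, Zfand5, Pomp, Ubqln2 and Nfe2l1 had log2 ratios of -0.51, -0.08, 0.15, -0.58 and 0.47. Those of Akirin2, Ngly1 and Ufd1 were 2.75, 4.19 and 3.12. Ddi1, a ubiquitin shuttle with a protease domain, had 4424 in adult testis against the floor on every other array, at least 58.8-fold higher. Ngly1, the glycanase that processes Nfe2l1, was 6.46-fold higher and Ufd1, a cofactor of p97, 3.09-fold higher. Ubqln2, a ubiquitin shuttle, was 4.22-fold lower, and Nfe2l1, the transcription factor that raises proteasome genes when the proteasome is inhibited, 2.03-fold lower, with signals of 1082, 1082 and 2422 in the ovaries and 1257, 1484 and 730 in the testes, in order of age. Of the list of ubiquitin genes and their activating enzymes, only Uba6 was matched, with 734 in neonatal and 478 in adult testis and 2159 and 772 in fetal and neonatal ovary.

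The genes that match the symbol pattern without being subunits were given no place in the counts. Psmc3ip, also known as Hop2, acts in strand exchange during meiotic recombination. Its signals were 398, 391.9 and 198 in fetal, neonatal and adult ovary and 414, 536 and 3377 in fetal, neonatal and adult testis. Adult testis was 6.30-fold above neonatal testis, and fetal ovary and fetal testis were alike within 1.04-fold. Psme3ip1 lay between 1197 and 1427 on all 6 arrays.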

How the data were processed

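The authors deposited 1 intensity value per probe set and array on a linear scale (45101 probe sets). Per the submitters' processing notes, GCOS version 1 was among the tools. How background was corrected and probes were summarised is not stated. Arrays were scaled to the same 2% trimmed mean (factors 0.913 to 1.26), signals under the 50th percentile of all scaled signals were raised to it, and a gene was represented by its brightest probe set with a single symbol in the platform annotation. The 47 genes have 100 such probe sets, and 26 genes have 2 or more; several can cross-hybridize to related copies. The robust SD of a log2 ratio, from pairs of probe sets of a gene, was 0.16 for fetal ovary over fetal testis and 0.59 for adult over neonatal testis; it covers no variation between animals. Of 120 genes on the context lists 108 were matched; the others are not analysed here. Named genes are all members, with values on every array for those called at 4-fold and for Psma8, Psmb8, Psmb9, Psmb10 and Psme4; Psmd8, Uba6 and the other genes given in full were added after their values were seen. Members and lists were chosen with earlier results of these data known, and so was the scaling to hybridization controls. Promoters are RefSeq's (GRCm38.p6). Steps were tested on simulated arrays. Python 3.11.15, numpy 2.4.6 and pandas 2.3.3 were used.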

Additional observations from a re-analysis of the deposited data

Results flagged for a closer look

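Psma8 moved in opposite directions in the sexes between neonatal and adult life. The log2 ratio of adult over neonatal was 3.75 in testis and -1.06 in ovary, with signals of 187 and 2524 in testis and 167 and 80.0 in ovary. The difference was not tested, since each group has 1 array. The ovarian signals lie close to the floor of 75.3, and with the floor at the 75th percentile the ovarian ratio was 0.00 and the testis ratio 2.88.

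A signal outside the counted genes came from the probe set that carries the symbols Psme2b and Psme2 together. Psme2 is the beta subunit of the PA28 activator, the partner of Psme1. The probe set had 1694, 1850 and 2221 in fetal, neonatal and adult ovary and 1734, 1872 and 396 in fetal, neonatal and adult testis. Its log2 ratio of adult over neonatal testis was -2.24, beside -3.02 for Psme1.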

How the results depend on the processing

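No paired analysis was possible because the groups share a single replicate number, with 1 array each. A comparison of the sexes with age as a block was not run. Leaving out a replicate is not possible either. Scaling to the hybridization controls moved the median log2 ratio of all genes tested in adult over neonatal testis from -0.30 to 0.96 and in adult ovary over adult testis from 0.35 to -0.65. With it, the adult over neonatal testis counts became 21 higher and 1 lower (all genes 48.7% and 8.5%), with a median of 0.88. The adult ovary over adult testis counts became 5 higher and 17 lower (all genes 14.3% and 40.8%), with a median of -0.60. In neonatal ovary it gave 4 called higher than in neonatal testis (median 0.51), beside 2896 of 13005 genes tested. Over fetal ovary the median was 0.54. Among the genes called with the trimmed mean, scaling to these controls turned the sign of some log2 ratios. In adult over neonatal testis, Psma2 turned to 0.11, Psma4 to 0.19, Psma5 to 0.25 and Psmb1 to 0.08. Psmb2 turned to 0.01, Psmb3 to 0.05, Psmc4 to 0.33, Psmd5 to 0.22 and Psmg3 to 0.15. In adult ovary over adult testis, Psma4 turned to -0.07, Psmb1 to -0.01 and Psmc4 to -0.01. Genes short of the limit turned as well and are not listed in full, such as Psma3, Psmb5, Psmb6 and Psmb7 in adult over neonatal testis. This alternative multiplies each array by 1 factor, and which scaling is nearer to the tissue was not tested. Signals as deposited gave 2 genes lower in neonatal ovary than in neonatal testis, 0 higher in neonatal than in fetal ovary (median -0.42), and 5 higher and 0 lower in adult than in neonatal ovary (median 0.37). The mean of all probe sets gave 3 genes higher in adult than in neonatal testis and 2 lower in adult ovary than in adult testis, where dim probe sets and disagreeing ones enter the mean. A limit of 4-fold gave 2 lower in adult than in neonatal testis, 5 higher and 3 lower in adult ovary than in adult testis, 0 higher in neonatal than in fetal ovary, and 0 higher and 0 lower in adult than in neonatal ovary. The 2 genes called higher in neonatal than in fetal ovary became 1 under quantile normalization, the median scaling, 16 added with no floor, the mean of all probe sets and the set without cross-hybridizing probe sets, and 0 with the floor at the 75th percentile. The counts in adult over neonatal ovary (2 higher, 1 lower) became 0 higher and 0 lower with the floor at the 75th percentile, 0 lower under the median scaling and with 16 added, and 1 higher with the mean of all probe sets and without cross-hybridizing probe sets. Inclusion of Psmc3ip and Psme3ip1, chosen after the data were seen, moved no count or median by this measure. The other counts called and medians of the 7 comparisons stayed within 1.5 times and within the SD between probe sets. The count of genes that span 2-fold without adult testis moved from 2 to 5 as deposited and to 4 with the hybridization controls. The share of all genes that did so moved from 29.9% to 40.5% and to 43.4%. Psma8 in ovary, and Psmb8 and Psmb9 before adulthood, lie near the floor, which limits their ratios.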

Other observations

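Psmd11, a lid subunit, had a dim probe set with a signal of 399 in adult testis that was below the floor on the other 5 arrays, a log2 ratio of at least 2.41 over neonatal testis. The probe set used for Psmd11 had 3400 and 4292, and further probe sets above the floor on all arrays gave log2 ratios of -0.93, -0.69 and -0.04.

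Nfe2l3, a relative of Nfe2l1, had signals of 184 in fetal ovary, 294 in neonatal ovary and 133 in fetal testis, and lay at the floor elsewhere. H2-K1, a class I molecule, was higher in ovary than in testis at each age, with 2975 and 770 in fetal, 2442 and 959 in neonatal and 6013 and 1592 in adult animals, from a probe set that can cross-hybridize to related genes.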
